A study of Mus musculus with 6 samples.

Results

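The regions described here are distal sites of open chromatin found with similar strength in the atria (HT) and in the posterior second heart field (pSHF) of the mouse embryo. Each is a pair of overlapping peaks, one in each tissue's list. A pair was a member if the log2 ratio of HT over pSHF fold enrichment, after subtraction of the median ratio over all pairs (0.29), lay above -0.5 and below 0.5, and if both summits lay over 1 kb from either end of any annotated gene. There were 8090 members among 11503 distal pairs and 22574 pairs in all, out of 49267 HT peaks and 44018 pSHF peaks. The accessibility was measured by ATAC-seq, in which the transposase Tn5 inserts sequencing adapters into open DNA. The HT samples were atria and the pSHF samples the progenitor field behind the heart that adds cells to its venous pole, both taken by microdissection from WT embryos of CD1 mice, an outbred strain, at E10.0. Dissected pieces were pooled and dissociated, and each tissue had 3 samples. The deposited data used here are 1 peak list per tissue, so no value belongs to a single sample, no spread between samples is known and no difference between the tissues could be tested.

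Distal open sites include enhancers, which bind transcription factors and act on genes at a distance, insulator sites bound by CTCF, and promoters that start alternative transcripts inside a gene. Sites open in a progenitor tissue and in its differentiated derivative are a mixture of elements used in most cell types and elements that the 2 tissues share. Promoters rich in CpG, which commonly hold sites for SP and KLF zinc-finger proteins and for the CCAAT-binding factor NF-Y, are open in most cell types.

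Part of the members lay at annotated transcript starts. Whether such a start was an alternative or the main one of its gene was not tested. Transcript starts were taken from RefSeq (GRCm38.p6, the coordinates of mm10), each with a window of 300 bases that runs from 250 before to 50 after the start. The windows shown are those of the 5 members with the deepest coverage in their weaker tissue among members with a summit inside a window, so that the base content described further on can be read directly. Capitals mark the letters GGGCGG, bound by SP and KLF factors, and CCAAT, bound by NF-Y, on either strand. All are written from 5′ to 3′ on the strand of the transcript. They belong to Fer, which encodes a tyrosine kinase (chr17:63863731-63864030, plus strand), to Trim45, a tripartite motif gene (chr3:100922243-100922542, plus strand), to Dcun1d4, of the cullin neddylation machinery (chr5:73490776-73491075, plus strand), to Rbm15, an RNA-binding protein gene (chr3:107333240-107333539, minus strand), and to Kdm6a, an X-linked histone H3K27 demethylase gene (chrX:18162325-18162624, plus strand).
Fer: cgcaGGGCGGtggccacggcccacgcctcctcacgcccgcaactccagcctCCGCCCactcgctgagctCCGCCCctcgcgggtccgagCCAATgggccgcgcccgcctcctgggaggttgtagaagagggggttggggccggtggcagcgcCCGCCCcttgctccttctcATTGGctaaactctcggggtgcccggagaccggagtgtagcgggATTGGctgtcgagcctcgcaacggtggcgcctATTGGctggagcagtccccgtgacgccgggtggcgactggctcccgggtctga
Trim45: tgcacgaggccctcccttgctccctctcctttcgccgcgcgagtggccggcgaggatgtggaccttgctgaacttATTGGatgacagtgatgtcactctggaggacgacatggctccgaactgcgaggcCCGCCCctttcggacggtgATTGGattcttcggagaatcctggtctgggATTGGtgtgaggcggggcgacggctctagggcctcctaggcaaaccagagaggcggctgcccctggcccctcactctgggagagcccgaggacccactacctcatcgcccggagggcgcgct
Dcun1d4: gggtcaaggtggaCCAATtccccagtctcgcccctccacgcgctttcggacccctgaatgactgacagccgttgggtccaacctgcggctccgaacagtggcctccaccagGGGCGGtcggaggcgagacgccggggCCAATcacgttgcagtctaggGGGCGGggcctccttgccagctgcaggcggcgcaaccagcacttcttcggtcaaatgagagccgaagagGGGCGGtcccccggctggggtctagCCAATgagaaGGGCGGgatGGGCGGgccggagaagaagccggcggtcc
Rbm15: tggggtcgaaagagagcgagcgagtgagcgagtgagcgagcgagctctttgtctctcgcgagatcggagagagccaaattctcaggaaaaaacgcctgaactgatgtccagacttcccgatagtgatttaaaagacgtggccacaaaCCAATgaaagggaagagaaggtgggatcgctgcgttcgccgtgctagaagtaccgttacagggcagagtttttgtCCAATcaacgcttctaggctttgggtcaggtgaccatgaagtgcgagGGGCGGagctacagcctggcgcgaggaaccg
Kdm6a: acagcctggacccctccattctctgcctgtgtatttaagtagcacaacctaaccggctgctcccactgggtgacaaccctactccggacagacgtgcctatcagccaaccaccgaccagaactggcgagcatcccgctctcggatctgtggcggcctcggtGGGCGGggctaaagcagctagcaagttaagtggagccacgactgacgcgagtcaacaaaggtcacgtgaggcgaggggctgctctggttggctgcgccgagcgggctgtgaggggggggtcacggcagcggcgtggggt
For comparison, the deepest such window outside the bounds on the HT side is that of Nktr (chr9:121718931-121719230, plus strand) and on the pSHF side that of 5930403N24Rik (chr10:37140820-37141119, plus strand).
Nktr: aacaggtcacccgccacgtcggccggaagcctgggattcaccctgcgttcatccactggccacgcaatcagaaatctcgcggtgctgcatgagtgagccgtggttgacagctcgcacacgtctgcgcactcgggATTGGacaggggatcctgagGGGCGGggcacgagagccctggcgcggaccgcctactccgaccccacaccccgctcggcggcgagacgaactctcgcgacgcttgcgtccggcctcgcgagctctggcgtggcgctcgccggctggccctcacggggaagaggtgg
5930403N24Rik: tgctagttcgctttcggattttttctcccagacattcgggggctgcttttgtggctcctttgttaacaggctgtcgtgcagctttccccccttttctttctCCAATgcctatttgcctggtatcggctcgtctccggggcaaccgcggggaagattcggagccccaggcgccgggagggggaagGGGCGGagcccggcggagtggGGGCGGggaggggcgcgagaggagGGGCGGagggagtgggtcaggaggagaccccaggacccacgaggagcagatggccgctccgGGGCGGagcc

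The windows shown had between 54.3% and 71.3% G+C, against a median of 53.0% over all windows. Most of the 5 members lay not far beyond the 1 kb cut. The nearer summit was 1760 bp from a gene end at Fer, 1008 bp at Trim45, 1210 bp at Rbm15, 1568 bp at Kdm6a and 9292 bp at Dcun1d4. The Fer window had 71.3% G+C, 31 CpG, 4 copies of GGGCGG and 4 of CCAAT, and its peak had a fold enrichment of 13.8 in HT and 12.1 in pSHF (centred log2 ratio -0.10). The Kdm6a window had 63.0% G+C, 1 copy of GGGCGG and none of CCAAT, with a fold enrichment of 10.8 in HT and 11.4 in pSHF (-0.36). The Rbm15 window had the lowest G+C of the 5, 54.3%, but 23 CpG, and its peak had 9.21 in HT and 8.13 in pSHF. The Nktr window, with 68.7% G+C and 36 CpG, belonged to a peak of 13.3 in HT and 7.17 in pSHF (0.61). The 5930403N24Rik window, with 65.7% G+C and 4 copies of GGGCGG, belonged to a peak of 4.43 in HT and 5.57 in pSHF (-0.62).

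Balanced pairs made up 70.3% of the distal pairs, 76.7% of all pairs and 83.3% of the 11071 pairs with a summit within 1 kb of a gene end. The rule used this ratio, so the shares are a description of the cut and not a finding. Of the distal pairs, 14.0% (1612) lay at or above 0.5 and are called stronger in HT, and 15.7% (1801) lay at or below -0.5 and are called stronger in pSHF. At gene ends these shares were 8.26% and 8.46%. The bounds cut through a continuous distribution. Just inside the upper bound lay a pair in Fign with a fold enrichment of 11.1 in HT and 6.46 in pSHF, and just outside it a pair in Itgbl1 with 11.1 in HT and 6.46 in pSHF, both at 0.50. At the lower bound a pair in Inpp5f with 4.36 in HT and 5.05 in pSHF lay inside and a pair in Crtac1 with 5.77 in HT and 6.69 in pSHF outside, both at -0.50. The members spread over the whole range between the bounds, with a median of -0.03 and quartiles of -0.25 and 0.18.

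**Figure D1:**
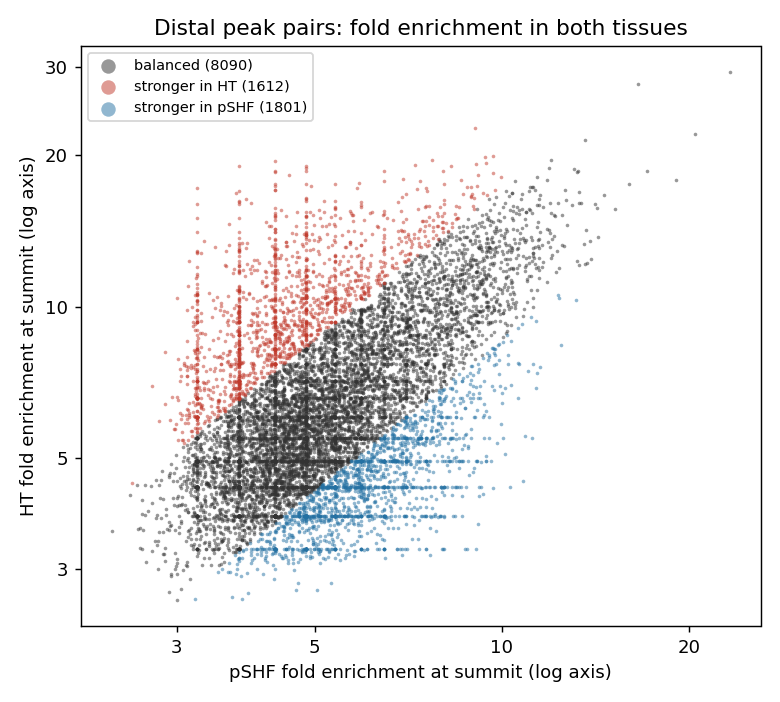
Fold enrichment at the summit of each distal pair in HT (vertical, log axis) against pSHF (horizontal, log axis), with 1 point per pair: 8090 balanced, 1612 stronger in HT and 1801 stronger in pSHF. The balanced pairs form the diagonal band that the rule cut, and the 2 outer classes join it without a gap.

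Members were of moderate strength. The median fold enrichment over the peak caller's background was 5.91 in HT (quartiles 4.93 and 7.53) and 4.85 in pSHF (4.24 and 6.06). Whole-number read pileups at the summits, recovered from the deposited fold enrichment and p-value, had a median of 13 reads in HT (quartiles 9 and 19) and 11 in pSHF (8 and 16). The highest pileup at a member was 104 reads in HT and 93 in pSHF. The higher HT level matches the offset of 0.29 (a ratio of 1.22) that was subtracted before the classes were cut, so a member with a ratio of 0 had the higher fold enrichment in HT. On width the tissues were in the opposite order. The median width was 239 bp in HT and 270 bp in pSHF, and 41.5% of members (95% exact Clopper-Pearson interval 40.5 to 42.6) were wider in HT. Several summits within a peak were listed for 12.9% of HT peaks and 22.2% of pSHF peaks of the members. All intervals of shares here cover counting error over peaks, not variation between embryos.

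At this depth, balanced strength is a statement about the listed values and not about equal accessibility. A 95% interval of the HT over pSHF pileup ratio was computed for each pair from the 2 read counts (exact binomial, centred on the median over all pairs). Its median half-width among members was 1.32 on the log2 scale, beyond the bounds of the rule. For 0 of 8090 members did the interval lie within -0.5 to 0.5, which allows a share of up to 0.0456% (exact Clopper-Pearson), and for 600 (7.42%, 6.85 to 8.01) it lay within -1 to 1. Read depth largely fixed the count of 0 in advance, since even members with 40 or more reads on the weaker side had a median half-width of 0.58. The interval contained 0 for 99.1% of members, which the rule largely fixed in advance by keeping ratios near 0. It also contained 0 for 61.8% of the pairs stronger in HT and 84.0% of the pairs stronger in pSHF. For those pairs the read counts alone do not set the pileup ratio apart from 0. The classes were cut on fold enrichment over local background and the interval is on pileup, so it does not test the classes themselves. These intervals cover counting error only and take reads as independent.

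The share of balanced pairs was higher among deeper pairs. Where the weaker tissue had 5 to 7 reads at the summit, 52.2% of distal pairs were balanced (1465 of 2809). The share was 70.3% at 8 to 11 reads, 79.4% at 12 to 19, 87.7% at 20 to 29, 95.5% at 30 to 39 and 98.1% at 40 or more (158 of 161, 94.7 to 99.6). The half-width of the counting interval went the other way, with a median of 1.68 in the shallowest members and 0.58 in the deepest. A pair with a strong tissue difference has by construction a low weaker side, so this order is in part set by the measure.

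**Figure D2:**
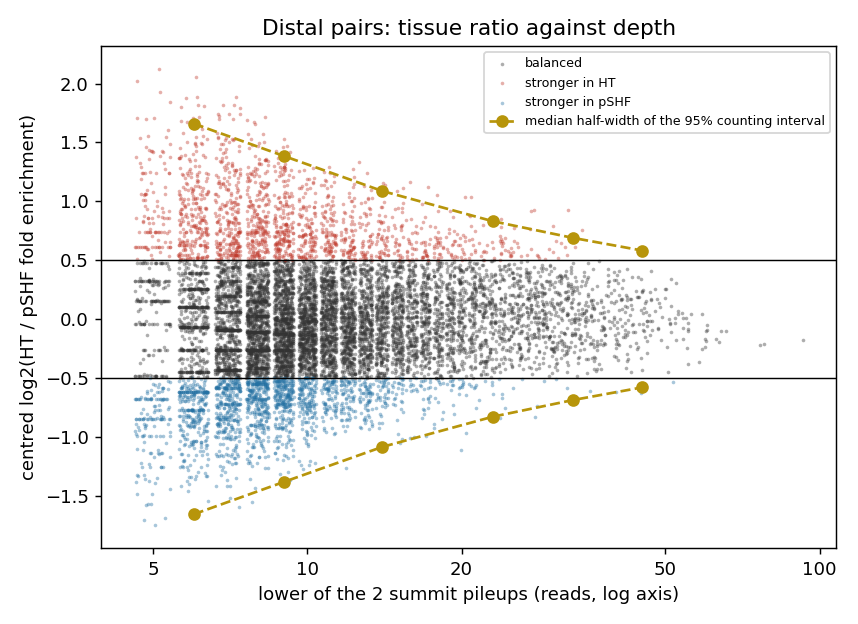
Centred log2 ratio of HT over pSHF fold enrichment for each distal pair (vertical) against the lower of its 2 summit pileups in reads (horizontal, log axis, points spread sideways by up to 0.4 reads), with horizontal lines at the bounds of 0.5 and -0.5. Dashed lines give the median half-width of the 95% counting interval over all distal pairs per depth class, above and below 0, and they lie outside the bounds at every depth.

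The deepest members differed in kind. The pair with the most reads on its weaker side lay on chromosome 2, 98666209 to 98667354 in the HT list, 35413 bp from the nearest gene end, with a fold enrichment of 8.80 in HT and 8.17 in pSHF and pileups of 104 and 93 reads. A neighbouring pair at 98662246 to 98662898 had 86 reads in HT and 78 in pSHF. Their local backgrounds were 10.9 reads in HT and 10.5 and 10.4 in pSHF, against a genome-wide 0.824 in HT and 0.857 in pSHF. No other named member had a local background as high. No filter for regions of uncertain read mapping was applied here, and whether these pairs reflect open chromatin or read mapping was not tested. The next were mostly pairs inside genes. An exception on chromosome 15 (75086680 to 75087040) lay outside any gene body, 11837 bp from the nearest gene end. It had 18.6 in HT and 17.1 in pSHF, with 67 and 60 reads. A pair in Pcmtd1, a methyltransferase-domain gene on chromosome 1 (7088414 to 7089443), had 13.2 in HT and 12.6 in pSHF. A pair in Tiam1, which encodes a Rac exchange factor, on chromosome 16 (90143666 to 90144469), had 10.6 in HT and 10.0 in pSHF. A pair on chromosome 8 (4677306 to 4678853) inside the predicted gene Gm6410 had 9.96 in HT and 8.77 in pSHF and was 1548 bp wide in HT. An annotated start lay within 250 bp of a summit at the Fer member, with 64 reads on the weaker side, and at those of Trim45, Dcun1d4 and Rbm15, with 60 each.

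Of the 452 members with at least 30 reads in both tissues, the 5 nearest a ratio of 0, a choice made by the ratio itself, lay at Nrg1, Jund, Mnt, Sertad2 and Rfx5. A pair in Nrg1, which encodes a growth factor of the heart and nervous system, on chromosome 8 (32293115 to 32293607), had a fold enrichment of 14.1 in HT and 11.5 in pSHF (pileups 33 and 30), 106948 bp from the nearest gene end. A pair at Jund, an AP-1 subunit gene, had 8.19 in HT and 6.72 in pSHF (65 and 51 reads). A pair in Mnt, a Max-binding repressor gene, had 5.91 in HT and 4.84 in pSHF, a pair in Sertad2 had 7.36 and 6.04, and a pair in Rfx5, an MHC class II regulator gene, had 12.4 and 10.2. All 5 ratios were 0.00 after centring. Annotated starts lay within 250 bp of a summit at Sertad2 and Rfx5. The counting intervals of the 5 were each wider than the bounds of the rule, from -0.94 to 0.58 at Nrg1 and from -0.52 to 0.59 at Jund.

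Most members lay inside genes. Both summits were in a gene body for 64.8% of members (63.7 to 65.8), against 61.9% of pairs stronger in HT (59.5 to 64.3) and 60.3% of pairs stronger in pSHF (58.0 to 62.6). By the lower of the 2 summit pileups, with fewer than 12 reads the shares were 59.4% of members, 59.4% of pairs stronger in HT and 58.0% of pairs stronger in pSHF. With 20 or more they were 80.2% of members (77.8 to 82.4), 63 of 84 pairs stronger in HT (64.4 to 83.8) and 74.4% of pairs stronger in pSHF (57.9 to 87.0). The intervals of the 3 classes overlapped in both of these ranges. The ranges match the weaker side only, and the stronger side is by definition higher in the outer classes. The median distance from a member to the nearest gene end was 8924 bp (quartiles 3191 and 23086), and 10.6% of members lay over 50 kb from one. The farthest, in the neuronal splicing regulator gene Rbfox1 on chromosome 16 (6839657 to 6840010), lay 572596 bp from any gene end, with 6.33 in HT and 7.30 in pSHF. In Nrxn3, which encodes a neuronal adhesion protein, a member at chromosome 12, 89811889 to 89812722, lay 522633 bp from any gene end but within 250 bp of an annotated start, with 9.96 in HT and 9.53 in pSHF.

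Because the rule kept members away from gene ends only, some lay at transcript starts inside genes. Starts on chromosome 18 were not used here. Among the 7813 members on the other chromosomes, 969 (12.4%, 11.7 to 13.2) had a summit within 1 kb of an annotated start and 739 (9.46%, 8.82 to 10.1) within 250 bp. Within 250 bp the share was 5.90% (4.78 to 7.18) for pairs stronger in HT and 4.14% (3.25 to 5.19) for pairs stronger in pSHF. The share among members was 1.41% at 5 to 7 reads on the weaker side, 2.75% at 8 to 11, 9.39% at 12 to 19, 31.9% at 20 to 29, 48.6% at 30 to 39 and 43.2% at 40 or more. At 20 reads or more, 441 of 1176 members (37.5%, 34.7 to 40.3) stood beside 30 of 82 pairs stronger in HT (36.6%, 26.2 to 48.0) and 7 of 38 pairs stronger in pSHF (18.4%, 7.74 to 34.3). This range is open at the top, and 443 of the 1176 members, 11 of the 82 pairs stronger in HT and 6 of the 38 pairs stronger in pSHF had 30 or more. At 20 to 29 reads the intervals of all 3 classes overlapped, with 31.9% of members (28.6 to 35.4), 35.2% of pairs stronger in HT (24.2 to 47.5) and 15.6% of pairs stronger in pSHF (5.28 to 32.8). At 5 to 7 reads the share was 1.41% of members, 3 of 600 pairs stronger in HT and 2.40% of pairs stronger in pSHF, and at 8 to 11 reads it was 2.75%, 3.51% and 4.01% in the same order of classes.

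**Figure D3:**
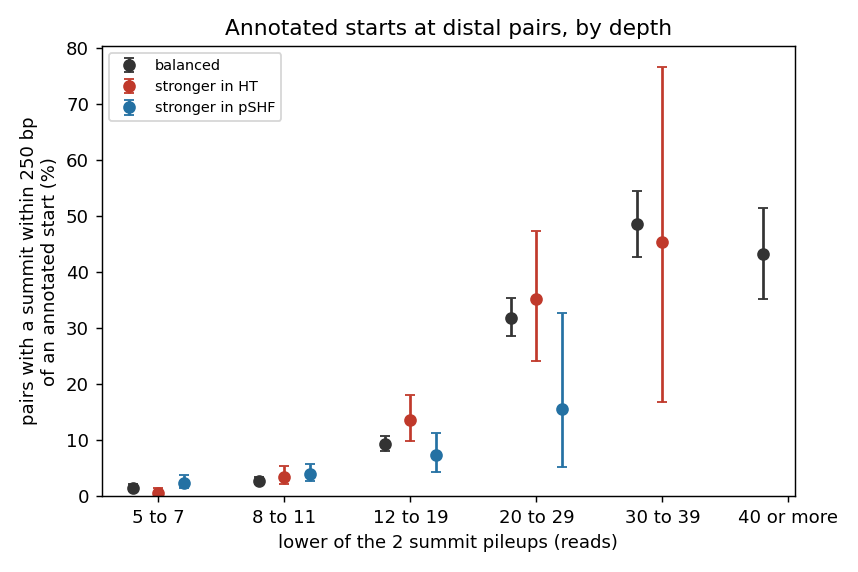
Share of distal pairs with a summit within 250 bp of an annotated transcript start (vertical, %), by the lower of the 2 summit pileups (horizontal, reads), for balanced pairs, pairs stronger in HT and pairs stronger in pSHF, with exact 95% intervals and without classes of fewer than 10 pairs. Among balanced pairs the share was 1.41% in the shallowest class and 48.6% at 30 to 39 reads, and at 20 to 29 reads it was 31.9% among balanced pairs, 35.2% among pairs stronger in HT and 15.6% among pairs stronger in pSHF.

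The start windows at members were rich in CpG. A summit lay in a window for 669 members, 81 pairs stronger in HT and 63 pairs stronger in pSHF. Median G+C was 62.0% at members (quartiles 56.0 and 68.3), 57.7% at pairs stronger in HT (52.7 and 63.7) and 61.3% at pairs stronger in pSHF (52.7 and 68.0). The ratio of observed to expected CpG had a median of 0.72 at members, 0.58 at pairs stronger in HT and 0.59 at pairs stronger in pSHF, against 0.31 over the 4727 windows whose start lay over 1 kb from a gene end and 0.39 over all 32619 windows. At 20 or more reads on the weaker side, median G+C was 63.3% in 415 windows at members, 59.3% in 29 at pairs stronger in HT and 67.2% in 6 at pairs stronger in pSHF. The median CpG ratio was then 0.77 at members, 0.65 at pairs stronger in HT and 0.79 at pairs stronger in pSHF, and at 12 to 19 reads it was 0.65 at members, 0.61 at pairs stronger in HT and 0.76 at pairs stronger in pSHF. The order of members and pairs stronger in pSHF was thus turned in these ranges, on only 6 and 16 windows at pairs stronger in pSHF. Below 12 reads the order was not turned. There the median CpG ratio was 0.51 in 87 windows at members, 0.37 in 17 at pairs stronger in HT and 0.49 in 41 at pairs stronger in pSHF. No intervals were computed for the medians by depth.

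Letters of CpG-rich promoters were common in these windows. GGGCGG was present, on either strand, in 67.3% of the windows at members (63.6 to 70.8), 50.6% at pairs stronger in HT (39.3 to 61.9) and 55.6% at pairs stronger in pSHF (42.5 to 68.1), and in 35.9% of all windows. At 20 or more reads these shares were 74.0% at members (69.5 to 78.1), 58.6% at pairs stronger in HT (38.9 to 76.5) and 6 of 6 at pairs stronger in pSHF. The ETS letters CGGAAG stood in 25.9% at members and 17.0% of all windows. CCAAT stood in 37.8% of the windows at members and 37.6% of all windows. A loose form of the CTCF core stood in 50 windows at members (7.47%, 5.60 to 9.73), 3 at pairs stronger in HT (3.70%, 0.770 to 10.4), 2 at pairs stronger in pSHF (3.17%) and 3.45% of all windows. AGATAA, read by GATA factors, stood in 5.38% at members, 8.64% at pairs stronger in HT (3.55 to 17.0), 4.76% at pairs stronger in pSHF and 11.2% of all windows. TATAAA stood in 5.38% at members and 13.7% of all windows. T-box (AGGTGT), TEAD (GGAATG), forkhead (TGTTTAC), MEIS and PBX (TGACAG) and AP-1 (TGANTCA) letters stood in 10.5%, 14.2%, 1.94%, 17.9% and 5.23% of the windows at members and in 13.8%, 14.6%, 3.67%, 18.9% and 7.85% of all windows. Both strands were searched for each motif, GGGCGG can overlap the CTCF letters, base content moves with all of these shares, and a match is letters in a window and not a bound site.

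**Figure D4:**
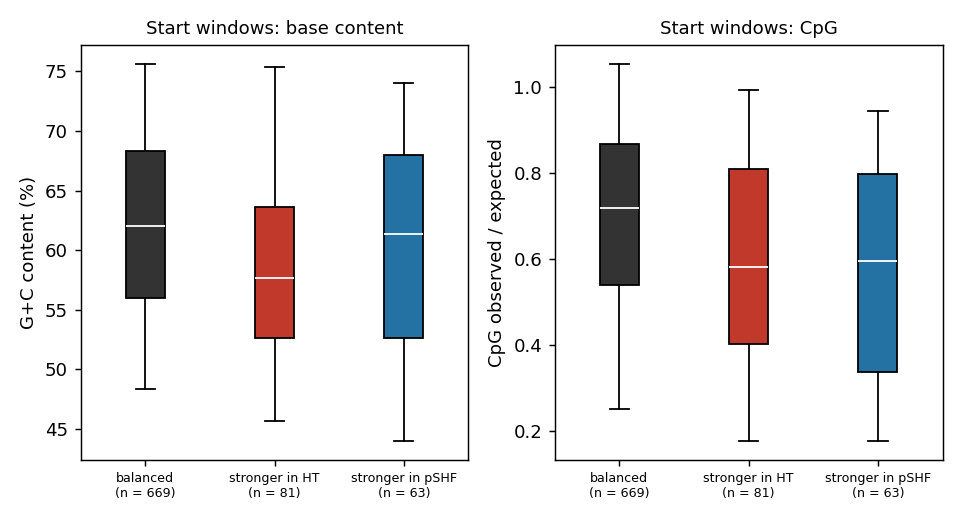
G+C content (left, %) and ratio of observed to expected CpG (right) in the 300-base windows that hold a summit of a balanced pair (n = 669), a pair stronger in HT (n = 81) or a pair stronger in pSHF (n = 63). Boxes span the quartiles with the median as a white line and whiskers run from the 5th to the 95th percentile, and the medians of the CpG ratio over all depths are 0.72, 0.58 and 0.59.

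The summits of the paired peaks lay close together. The median distance between the HT and the pSHF summit was 63 bp in members (quartiles 34 and 96), 67 bp in pairs stronger in HT and 62 bp in pairs stronger in pSHF. It was 50 bp or less in 38.5% of members and over 200 bp in 4.30% (3.87 to 4.77). The farthest apart, by 918 bp, were in Impact on chromosome 18 (12973138 to 12974529), in a peak with 4 summits in HT and 5 in pSHF. In Hopx, a homeodomain-only cardiac regulator gene, the HT summit lay 572 bp from the pSHF summit, in peaks of 546 bp in HT and 199 bp in pSHF that overlapped by only 2 bp and so barely met the pairing rule. The widest member by the mean of both tissues, in Mllt10, a leukaemia-associated chromatin gene, spanned 1511 bp in HT and 1698 bp in pSHF on chromosome 2.

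Members had both kinds of tissue-restricted peak nearby. A peak listed only in HT had its summit within 10 kb of 28.0% of members, 31.5% of pairs stronger in HT (29.2 to 33.8) and 28.3% of pairs stronger in pSHF (26.2 to 30.4). A peak listed only in pSHF did so for 20.5% of members (19.6 to 21.4), 16.2% of pairs stronger in HT (14.4 to 18.1) and 20.8% of pairs stronger in pSHF (18.9 to 22.7). HT-restricted peaks outnumber pSHF-restricted ones in the lists, 22400 to 15132. A local background above 4 reads in either list was found at 5.93% of members, 3.10% of pairs stronger in HT and 2.11% of pairs stronger in pSHF.

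Members were scattered over many genes. A protein-coding gene lay within 100 kb of 7400 members, and these were spread over 5046 of 21631 genes, 1481 with at least 2 members and 92 with at least 5. Assignment to the closest gene gives a location only, and a site may act on another gene. Nav2, a neuron navigator gene on chromosome 7, and Tenm4, a teneurin gene on the same chromosome, had 10 members each. Nav2 had no distal pair outside the bounds, beside 13 HT-restricted and 7 pSHF-restricted distal peaks. Its strongest member (49245700 to 49246402) had a fold enrichment of 14.4 in HT and 9.26 in pSHF, and the HT values of the other 9 ran from 3.94 to 7.53. Maml3, a Notch coactivator gene, had 9 members and 7 pairs stronger in pSHF, and Gse1 had 9 members and none outside the bounds. Nfia, a nuclear factor I gene, had 8 members with 4 pairs stronger in HT and 4 stronger in pSHF, and Shroom3, an actin regulator gene of epithelial shape, had 8 members and no other distal pair. Ank2, Camta1, Dab2ip and Frmd4a were among the genes with 7. Most of these genes are long, from 172.5 kb for Dab2ip to 802.2 kb for Camta1, and length moves with the number of peaks. When each member was given instead to the gene with the nearest end, Nav2, Tenm4 and Gse1 had 3 each, Maml3 7, Nfia 2, Shroom3 6 and Camta1 0.

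Genes of cardiac transcription factors held 34 members at 19 of 23 genes, beside 4 distal pairs stronger in HT and 9 stronger in pSHF. The lists described here were chosen with earlier results on these samples known, and each is given as a count beside the background, which was 71.0% of the 10425 distal pairs near a protein-coding gene (median ratio -0.04). For the cardiac factors the share was 72.3% (median -0.02). Mef2c, a MADS-box factor of both heart fields, had 6 members and no distal pair outside the bounds, with 4 HT-restricted and 1 pSHF-restricted distal peak. The strongest Mef2c member, on chromosome 13 (83517945 to 83518766), had a fold enrichment of 12.9 in HT and 12.2 in pSHF, the second (83744892 to 83745408) 10.2 in HT and 9.47 in pSHF, and the third (83523635 to 83523936) 9.25 in HT and 6.31 in pSHF. The other 3 lay between 3.84 and 7.03 in HT and between 3.23 and 6.81 in pSHF. Nr2f1, an orphan receptor gene, had 4 members, with 3.42 to 5.45 in HT and 2.80 to 4.68 in pSHF. Hand2, a basic helix-loop-helix factor of the heart, had 3 members, the strongest with 6.17 in HT and 5.08 in pSHF, and 1 pair stronger in pSHF.

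Of 20 genes picked for their roles in these tissues, with earlier results known, 19 had a member, against 5046 of all 21631 protein-coding genes. The strongest at each had a fold enrichment of 4.93 to 12.9 in HT and 4.08 to 12.2 in pSHF, and 3 of the 19, Mef2c and Ptch1 among them, had 30 or more reads in both tissues. At Isl1, the LIM homeobox gene of the second heart field, the member lay 4187 bp from the gene on chromosome 13 (116293895 to 116294199), with 6.05 in HT and 6.35 in pSHF. At Tbx20 it had 9.74 in HT and 5.92 in pSHF (0.43), at Osr1 9.23 and 5.44 (0.48), and at Meis2 7.36 and 4.31 (0.49), all near the upper bound. At Gata4 it had 5.69 in HT and 4.08 in pSHF, at Gata6 7.38 and 6.01, at Tbx5 7.08 and 4.88, and at Tead1 7.42 and 7.41. Not all of these sites were close to the gene. The members named lay 74171 bp from Tbx20, 55213 bp from Tbx5, 7794 bp from Gata6 and 3466 bp from Osr1. At Foxf1 the member lay 90801 bp from the gene with 6.47 in HT and 5.80 in pSHF. Most of these pileups were below 30 reads, and the counting interval of the ratio was from -1.93 to 0.14 at Isl1 and from -0.11 to 2.22 at Tbx20.

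The progenitor and Hedgehog lists had lower shares of balanced pairs than the background, on few pairs. Second heart field progenitor genes had 18 members of 29 distal pairs (62.1%, 42.3 to 79.3, median -0.13), with 5 pairs stronger in HT and 6 stronger in pSHF, and Hedgehog genes had 12 of 21 (57.1%, 34.0 to 78.2, median -0.16), with 3 and 6. Both intervals contain the background share. The lists can share genes, and the 6 members of Mef2c count in both the progenitor list and that of the cardiac factors. Gli2, a transcriptional effector of the Hedgehog pathway, had 4 members with fold enrichments of 3.58 to 6.13 in HT and 3.26 to 4.96 in pSHF. Beside them Gli2 had 1 pair stronger in pSHF, 5 HT-restricted and 14 pSHF-restricted distal peaks. Ptch1, the receptor gene and a target of the pathway, had 2 members, the stronger on chromosome 13 (63567754 to 63568252) with 6.62 in HT and 6.02 in pSHF and pileups of 54 and 46 reads, and 1 pair stronger in pSHF with 4.39 in HT and 6.62 in pSHF. Ptch1 also had 2 HT-restricted distal peaks and 1 pSHF-restricted one. Disp1, which encodes a protein of Hedgehog ligand release, had 2 members. Hhip, a Hedgehog-binding inhibitor gene, had none. The TALE homeobox genes had 11 of 20 (55.0%), 5 of them at Pknox2, and the Hippo and Tead genes 16 of 28 (57.1%), with 4 each at Tead1 and Vgll4. Vgll4, a cofactor of TEAD proteins, had values of 6.67 to 11.1 in HT and 4.64 to 7.73 in pSHF and no distal pair outside the bounds.

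The signalling lists had shares of balanced pairs near the background of 71.0%. Bmp and Tgf-beta genes had 31 members of 37 distal pairs (83.8%, 68.0 to 93.8, an interval that contains the background, median -0.08), 1 pair stronger in HT and 5 stronger in pSHF. Smad6, an inhibitory Smad gene, had 7 members, the strongest on chromosome 9 (64045128 to 64045610) with 11.2 in HT and 7.31 in pSHF, and Bmpr1b and Id1 had 4 and 3. Fgf genes had 29 of 38 (76.3%), with 5 at Fgf12 and 3 each at Dusp6 and Spred1. Notch genes had 23 of 33 (69.7%), with none stronger in HT, 10 stronger in pSHF and 7 of those 10 at Maml3. Retinoic acid genes had 14 of 20 (70.0%). Of these, 7 lay at Rarb, a retinoic acid receptor gene, and included a member on chromosome 14 (16575269 to 16575868) with 8.94 in HT and 8.63 in pSHF and 1 with 9.37 in HT and 5.58 in pSHF. Wnt genes had 14 of 19 (73.7%, median -0.30), with none stronger in HT and 5 stronger in pSHF, and 2 members each at Axin2, Fzd4 and Lef1.

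Lists of structural and general genes lay near the background. Sarcomere genes had 12 members of 16 distal pairs, at 5 of 22 genes, beside 47 HT-restricted and 16 pSHF-restricted distal peaks. Tpm1, encoding a tropomyosin that is also made outside muscle, had 4, the most strongly covered with 5.90 in HT and 5.55 in pSHF (35 and 30 reads), and Tnni1, the slow troponin I gene, had 3. Extracellular matrix genes had 14 of 18 (77.8%), 3 of them at Col1a2. Cell cycle and growth genes had 20 of 26 (76.9%, median 0.09), with 4 at Igf1r and 3 each at Ccnd1 and Ccnd3. Chromatin architecture genes had 6 of 8 and housekeeping genes 7 of 10, 3 each at Actb and Ywhaz.

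Among markers of other cell types that the dissected pieces could hold, the erythroid list stood lowest. It had 1 member, at Klf1, of 7 distal pairs (14.3%, 0.361 to 57.9), and the other 6 were stronger in HT (median 0.89). Anterior Hox genes had 2 members of 6, with 4 stronger in pSHF (median -0.55), and somite genes 2 of 5, with 3 stronger in pSHF (median -0.54). Endothelial and endocardial genes had 19 of 26 (73.1%), with 4 at Npr3, an endocardial natriuretic peptide receptor gene, and 2 each at Cdh5 and Erg. Epicardial genes had 8 of 10, with 2 each at Tbx18 and Wt1, foregut endoderm genes 7 of 8, with 2 each at Foxa2 and Grhl2, and neural tube and crest genes 8 of 10, with 2 at Nkx6-1. At gene ends, a peak within 1 kb was listed in HT for 3 of 6 atrial markers, among them Nppa and Myl7, and in pSHF for 1 of 6, Tnnt2, while Myh6, Nkx2-5 and Myl4 had none in either list. For pSHF markers it was listed in HT at 5 of 6 and in pSHF at 4 of 6, with Tbx5 and Gli1 in HT alone and Foxf1 in pSHF alone. For 4 erythroid markers these counts were 3 in HT and 0 in pSHF, for endothelial ones 3 in HT and 2 in pSHF of 4, for endoderm ones 4 in each of 4, and for epicardial ones 3 in HT and 2 in pSHF of 3. The part of cell composition in the ratios was not tested.

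**Figure D5:**
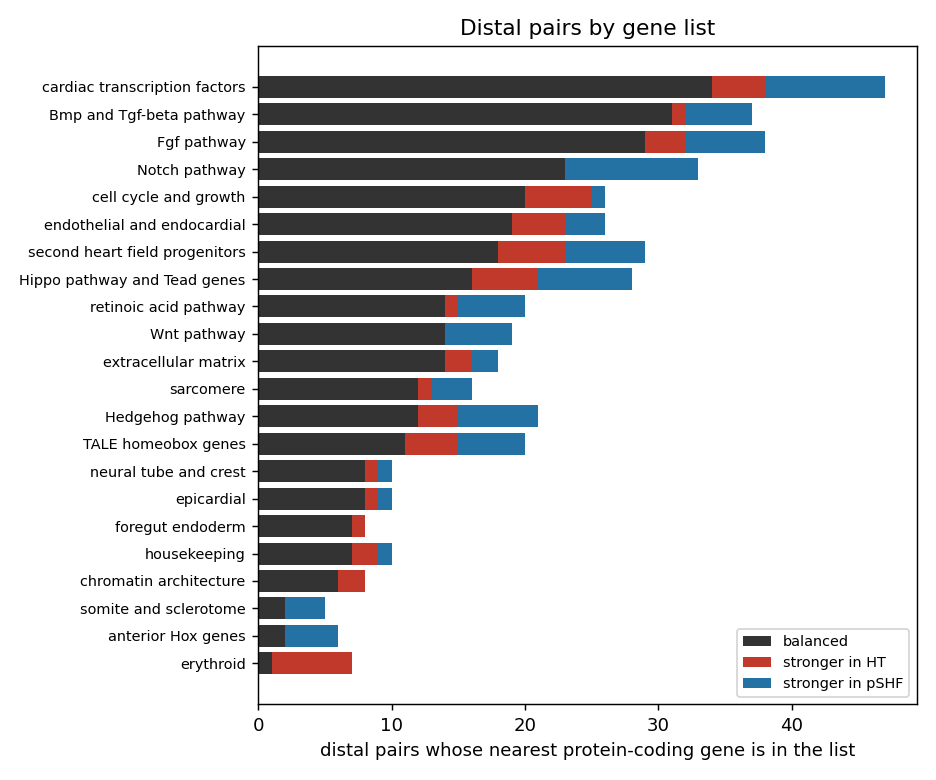
Number of distal pairs whose nearest protein-coding gene is in each list (horizontal), split into balanced pairs, pairs stronger in HT and pairs stronger in pSHF. Balanced pairs are the largest class in all lists except the erythroid, anterior Hox and somite lists, which have 1, 2 and 2.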

How the data were processed

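ATAC-seq peak lists of 2 tissues were used, 1 per tissue, from 3 samples each. The build mm10 and the programs MACS2 2.1.1, Bowtie2 2.3.2, Picard and SAMtools 1.5 are named per the submitters' processing notes. They do not give each program's role, or say if the 3 samples of a tissue were joined for peak calling. The deposited columns are a score, the fold enrichment at the summit as a ratio over background, and the −log10 p-value and −log10 q-value, per the file layout. In the authors' deposited table the lowest −log10 q-value was 1.31 in HT and 1.30 in pSHF. The authors also deposited the summit's offset from the peak start.

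Lines with equal intervals were merged, keeping the summit of highest fold enrichment. Peaks overlapping by 1 bp or more, each with a single partner, were paired. Pileups were recovered from fold enrichment = (pileup + 1)/(background + 1) and the Poisson p-value, and for 100% of summits of each tissue a whole pileup gave the p-value within 0.01 in log10 units. The median summit pileup over all lines was 14 reads in HT and 13 in pSHF. Genes (49554, of which 21631 protein-coding) and transcript starts came from RefSeq GRCm38.p6, which has the coordinates of mm10; it gave no exons, and no genome sequence was used. Starts on chromosome 18 were not used here. Each pair was assigned to the nearest protein-coding gene body within 100 kb of the HT summit.

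The members and the 22 gene lists (350 symbols, 349 found) were chosen with earlier results of these data known. Named items were, by rule, the deepest members, those nearest a ratio of 0, the widest, those nearest each bound, those farthest from gene ends or with the largest summit offset, the genes and 100 kb windows with most members, the leading genes of each list, and 20 genes; a few of these items are not reported here. The motifs of SP and KLF, NF-Y, ETS and TATA, and the 2 alternatives on starts and on local background, were set after the files were seen. Pairing, classes and pileup recovery were tested on simulated lists. Python 3.11.15, NumPy 2.4.6, pandas 2.3.3 and SciPy 1.17.1 were used.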

Additional observations from a re-analysis of the deposited data

How the results depend on the processing

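The number of members (8090) depended most on the bounds, the threshold and the distance. It was 4508 with bounds of -0.25 and 0.25, 3760 with a −log10 q of at least 5 in both lists and 5257 with summits over 5 kb from a gene end, and stayed within 1.5 times under the other 8 settings that bear on it. The share of distal pairs that were balanced (70.3%) was 39.2% with bounds of -0.25 and 0.25, 94.5% with bounds of -1 and 1, 65.0% without centring, 74.5% with 50% reciprocal overlap, 67.8% over 5 kb, 81.6% at the q threshold, 58.0% by summit pileup in place of fold enrichment and 69.1% with members also over 1 kb from annotated starts. The share of members inside genes (64.8%) was 66.7% with reciprocal overlap, 61.2% over 5 kb, 68.7% at the q threshold, 60.0% away from starts and 63.7% with a local background of at most 4 reads. The cause was not tested. Of 264 counts for gene lists under the alternatives, 198 stayed within 1.5 times, and of 360 for single genes 267 did. Of 55 medians of fold enrichment, width and summit offset, 28 stayed within the main median's 95% interval.

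No paired analysis was possible because each tissue has 1 list and no value per replicate, and leaving out a replicate was not run for the same reason. The planned search for motif letters in the members themselves was not run, since no genome sequence was used here. Depth limits the ratios: the median summit pileup of members was 13 reads in HT and 11 in pSHF.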

Other observations

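Some genes had distal pairs of the balanced class alone and no restricted distal peak. Of 513 genes with at least 3 members, 27 had neither a distal pair outside the bounds nor a restricted distal peak assigned. Shared peaks without a single partner were not assigned to genes, so these genes may hold other distal peaks. They were seen after the counts were made and are given as values. Among them were Per1, a core gene of the circadian clock on chromosome 11, and Tef, a PAR-type leucine zipper gene on chromosome 15, with 3 members each and median ratios of -0.05 and -0.10. Others were Klf8, a Krüppel-like factor gene of 173.6 kb on the X chromosome, with 4 members (median -0.22), Tfap4, a helix-loop-helix gene, with 4 (-0.12), Midn, encoding the ubiquitin-like protein midnolin, with 4 (0.02), and Pim3, a kinase gene of only 3.53 kb, with 3 (-0.20). Balanced pairs with a summit in an annotated start window of the gene occurred at Per1, Tef and Midn, so part of these sites lay at transcript starts.

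Some windows held several members. Of the 5961 windows of 100 kb that held a member, 4382 held 1. The fullest, chromosome 8, 84900001 to 85000000, held 9 members and no distal pair outside the bounds, with Hook2, Junb, Klf1, Mast1 and Rnaseh2a as nearest genes. A window on chromosome 10, 80100001 to 80200000, held 8 and 2 pairs stronger in HT, with Midn, Cirbp and Stk11 among the nearest genes, and its members had a median local background of 5.69 reads in HT and 5.92 in pSHF. A window on chromosome 7, 19300001 to 19400000, held 8, with Fosb and Ercc1 among the nearest genes. A window on chromosome 9, 3000001 to 3100000, held 7 members and no protein-coding gene within reach. Whether its peaks reflect open chromatin or read mapping was not tested.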
